A study of Homo sapiens with 12 samples.

Results

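The report covers 10 long non-coding RNAs that are widely studied in tumours: NEAT1, MALAT1, GAS5, SNHG1, SNHG12, DANCR, TUG1, H19, HOTAIR and UCA1. They were chosen by name, with no measured value in the rule, and all 10 were found among the 38516 genes of the deposited table. All 10 were also among the 17823 genes tested, those that reached 0.5 RPKM in 3 or more libraries (RPKM is a read number divided by the length of the exons and by the sequencing depth). HOTAIR passed that filter through KYSE510 alone, where all 6 libraries were at or above 0.5, against 0 of the 6 libraries of KYSE150.

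The series holds RNA sequencing of KYSE150 and KYSE510, long-established lines derived from human esophageal squamous carcinomas and grown in RPMI-1640 medium with 10% fetal bovine serum. Each line had 3 control libraries and 3 libraries in which HCP5, itself a long non-coding RNA gene, was silenced. The labels do not explain the prefix sh in the titles and give no sequence of a silencing or control reagent, and none of the groups is described as a single clone. Nothing in the labels says that the 3 libraries of a group came from separate cultures, so p-values measure the spread between these libraries, which may be technical. Recovered reads ran from 20035025 to 28202422 per library, and HOTAIR in KYSE150 rests on 0 to 5 of them. Of 11 squamous epithelial marker genes, 10 had a mean of at least 1 RPKM in KYSE150 controls and 11 in KYSE510 controls, whereas 0 of 5 fibroblast markers did in either. Of 5 leukocyte markers 1 did in both lines, CD68, and of 3 endothelial markers 1 did, CDH5 in KYSE510 controls alone. HCP5 itself had RPKM values between 0.745 and 0.786 in KYSE150 controls and between 0.315 and 0.579 in KYSE150 silenced libraries. In KYSE510 it lay between 0.914 and 1.85 in controls and between 0.505 and 0.951 in silenced libraries, so the silenced means were 56.8% and 57.6% of control. On the log2(RPKM + 0.5) scale HCP5 differed by -0.49 (SE 0.14) as the mean of both lines. Its adjusted p from limma was 0.185, and 0.0295 when replicate number was added as a block.

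Long non-coding RNAs are long transcripts that are not translated into a known protein. They act in several ways: NEAT1 and MALAT1 stay in the nucleus, where NEAT1 scaffolds paraspeckles and MALAT1 collects in nuclear speckles with splicing factors, while GAS5, SNHG1, SNHG12 and DANCR carry small nucleolar RNAs (snoRNAs) in their introns and their spliced remainder is often removed by nonsense-mediated decay. H19 is an imprinted transcript of fetal growth that is the precursor of miR-675, HOTAIR comes from the HOXC cluster and is known for its contacts with the PRC2 and LSD1 chromatin complexes, TUG1 is a p53-responsive RNA, and UCA1 was named for urothelial carcinoma. In squamous carcinoma and other tumours, high levels of several of them have been linked to growth and invasion.

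Features of sequence are shown first because they bear on how these RNAs are made and how a library can count them. The first is the 3′ end of MALAT1 and of the long NEAT1 transcript, which carries no added poly(A) tail, whereas the short NEAT1 transcript ends earlier and is polyadenylated. RNase P cuts MALAT1 and long NEAT1 just before a tRNA-like small RNA, and the new end is protected by a triple helix in which a stretch of A pairs with 2 U-rich motifs. The last 110 bases before the cut are given from GENCODE release 29 on GRCh38, with capitals on every word of at least 8 bases that both ends share. NEAT1 is read at chr11:65445431-65445540 and MALAT1 at chr11:65506007-65506116, both on the plus strand, and the 3 shared words stand in the same order in both: TTTCTTTT, then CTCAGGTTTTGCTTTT, then AAAAAGCAAAA at the very end.
NEAT1: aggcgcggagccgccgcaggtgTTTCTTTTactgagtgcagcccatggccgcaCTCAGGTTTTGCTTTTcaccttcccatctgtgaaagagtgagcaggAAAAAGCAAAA
MALAT1: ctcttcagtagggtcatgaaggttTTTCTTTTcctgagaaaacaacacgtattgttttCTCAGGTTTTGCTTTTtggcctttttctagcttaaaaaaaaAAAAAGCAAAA
The labels name total RNA and a standard Illumina library but not how RNA was selected, so how far a poly(A) step enters these 2 values was not tested.

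The second is the 5′ end of the snoRNA host genes. Several of them begin with a run of C and T, the terminal oligopyrimidine tract shared with ribosomal protein genes, and the run is in capitals over the first 30 bases. GAS5 is given from the start shared by 6 of its 29 GENCODE transcripts (chr1:173867960-173867989, minus strand). The others are from RefSeq on GRCh38.p14: SNHG1 at chr11:62855856-62855885 and SNHG12 at chr1:28581844-28581873, both on the minus strand, and DANCR at chr4:52712394-52712423 on the plus strand.
GAS5: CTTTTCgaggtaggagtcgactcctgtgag
SNHG1: CTCatttttctactgctcgtggtaagtggc
SNHG12: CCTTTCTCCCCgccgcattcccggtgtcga
DANCR: gcccttgcccagagtcttcccgggattggc
The run was 11 bases in SNHG12, 6 in GAS5, 3 in SNHG1 and 0 in DANCR. A start at C followed by an unbroken run of at least 5 C or T stood in 4.07% of the 35116 RefSeq start sites in the table used. The GAS5 start printed here is not among those sites, and the run at the RefSeq start of GAS5 is not reported here.

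The third is the pair of mature miRNAs cut from H19, printed from RefSeq with the seed (bases 2 to 8) in capitals. They lie on the minus strand of chromosome 11, at chr11:1996800-1996822 for the 5p arm and chr11:1996768-1996787 for the 3p arm, within the H19 gene. The seeds differ, so the 2 arms do not form a seed family, and their own levels were not measured in these libraries.
hsa-miR-675-5p: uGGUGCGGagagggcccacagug
hsa-miR-675-3p: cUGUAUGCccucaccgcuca

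Levels spanned a wide range within each line. In these bulk libraries, fewer cells that express an RNA and less of it per cell cannot be told apart. In KYSE150 controls GAS5 was the most abundant member per length, at 36.0 ± 2.39 RPKM (SD, n = 3), and none of its libraries overlapped the next member. MALAT1, SNHG1, TUG1, NEAT1 and SNHG12 followed with means from 16.7 down to 7.33, and each neighbour in that order overlapped the next. DANCR at 4.23 and UCA1 at 3.79 overlapped each other, H19 was lower at 1.95, and HOTAIR was last at 0.0248. In KYSE510 controls the order began with H19 at 340 ± 156 RPKM, above every library of GAS5 at 26.2 ± 1.21. UCA1, TUG1, MALAT1, NEAT1, SNHG1 and SNHG12 then ran from 20.0 down to 11.1 with each neighbour overlapping the next, followed by DANCR at 5.59 and HOTAIR at 1.15. H19 thus stood at the 37.7th percentile of the means of all tested genes in KYSE150 controls and at the 99.3rd in KYSE510 controls. Spread between libraries also differed: the SD of H19 was 46.0% to 79.2% of its mean in the 4 groups, and that of GAS5 3.07% to 6.65%.

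**Figure D1:**
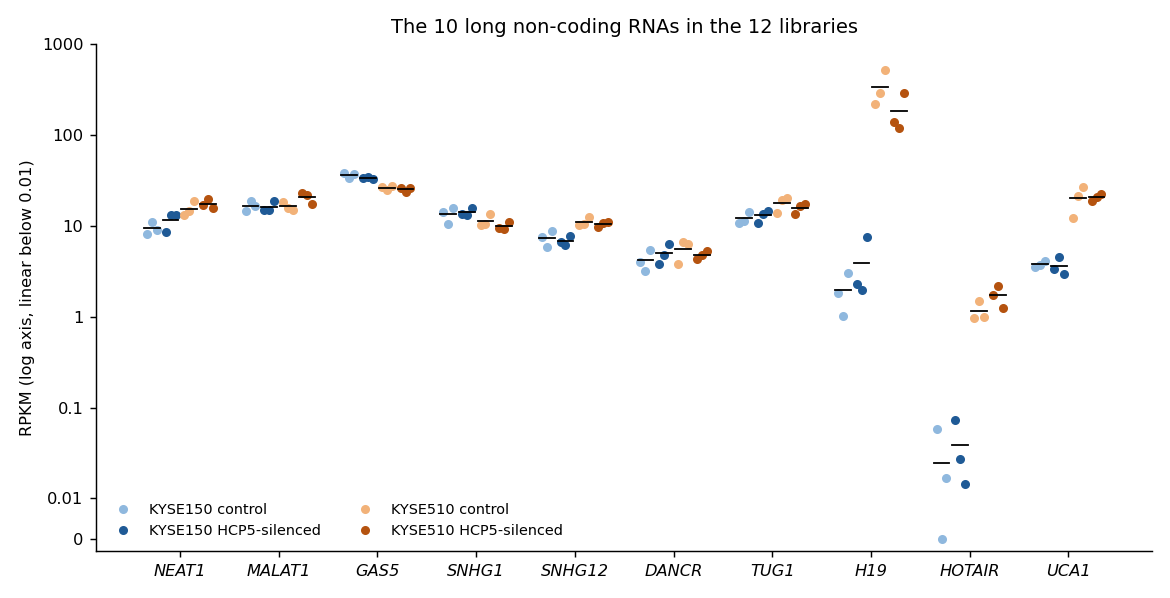
RPKM (log axis, linear below 0.01) of the 10 RNAs, with a point for each of the 12 libraries, colours for the 4 groups and a bar at each group mean. H19, HOTAIR and UCA1 separate the lines by the widest gaps, and control and silenced points of a line overlap for every RNA.

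The first comparison set control KYSE510 against control KYSE150 and asked which of these RNAs differ between the lines before any silencing. HOTAIR reached the 0.5 RPKM filter in 0 of 6 KYSE150 libraries and 6 of 6 KYSE510 libraries, so it entered the fit only through the line where it is high, and its difference is described below with no test. Of the other 9 members, 6 passed the test, 5 higher in KYSE510 (H19, UCA1, NEAT1, SNHG12 and TUG1) and 1 lower (GAS5). Of all tested genes 62.0% passed, 28.3% higher and 33.7% lower, and 58.1% passed of the 15638 that reached the filter in libraries of both lines. The median difference of the 9 was 0.52 on the log2 scale, beside -0.09 over those 15638 genes. The 3 controls of KYSE510 did not overlap the 3 of KYSE150 for 5 of the 9, against 64.0% of all tested genes. This 64.0% and the 50.9% below include the 2185 genes that reached the filter in 1 line alone. The share of the 9 called, 66.7%, was near the 58.1% of genes in both lines. With silenced libraries included, all 6 of one line stood apart from all 6 of the other for 4 of the 9 (GAS5, SNHG12, UCA1 and H19), against 50.9% of tested genes. H19 and UCA1 differed by at least 2 on the log2 scale, as did 401 of the 15638 genes in both lines. No other of the 9 differed by at least 1, as 2472 of those 15638 genes did. Over all tested genes, those in 1 line alone included, the shares were 5.27% and 21.3%. With 3 libraries against 3, the exact two-sided permutation test cannot go below 0.1, and it gave 0.1 for the 5 members without overlap.

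**Figure D2:**
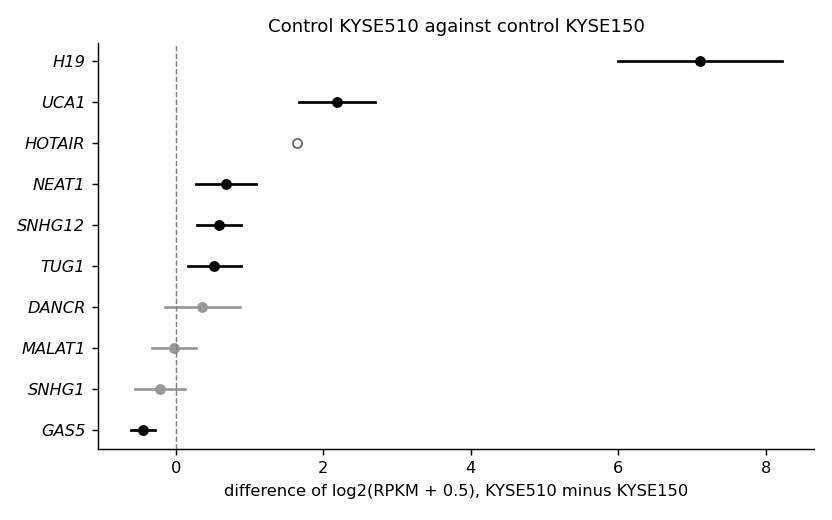
Difference of log2(RPKM + 0.5) between control KYSE510 and control KYSE150 for each RNA, with its limma 95% interval and black where the adjusted p was under 0.05. HOTAIR, at 1.64, is an open circle without an interval because it passed the filter only through KYSE510. H19 lies at 7.11 and UCA1 at 2.19, while DANCR, MALAT1 and SNHG1 have intervals that include 0.

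H19 showed the largest difference among the members. Its RPKM was 1.80, 1.02 and 3.03 in the KYSE150 controls and 217, 286 and 516 in the KYSE510 controls, from 59 to 194 reads in the first line and 14732 to 40073 in the second. Every KYSE510 library was far above every KYSE150 library, and the mean was 174-fold higher. The difference was 7.11 in log2 units (SE 0.51, adjusted p by limma = 3.26e-07). H19 lies at chr11:1995163-2001470 on the minus strand, with 2825 exon bases.

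IGF2, the growth factor gene expressed from the opposite parental allele at the same imprinted locus, had 5 reads over the 3 KYSE150 controls and 7 over the 3 KYSE510 controls, and was not tested. MRPL23, a mitochondrial ribosomal protein gene that is the nearest tested gene on one side, had means of 5.45 and 4.41 RPKM and a difference of -0.28 (adjusted p = 0.0658). Of 15 other genes listed for the surrounding 11p15 region, 7 were tested, of which the troponin gene TNNT3 passed the filter only through KYSE510. Of the other 6, 2 were higher in KYSE510 and 2 lower, or 66.7% called, beside 58.1% of genes in both lines. The higher ones were the troponin gene TNNI2 (1.92, adjusted p = 1.15e-06) and CD81, a tetraspanin gene (1.05, adjusted p = 0.00109). PHLDA2, an imprinted growth-restraining gene, was lower (-1.18, adjusted p = 0.00505). These differences were all smaller than that of H19.

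The table also holds short rows named H19_1, H19_2 and H19_3, conserved segments of the RNA that are listed both on chromosome 11 and on an unplaced scaffold. H19_3 lies outside the H19 row at both of its places, yet it had 118 reads over the KYSE150 controls and 20260 over the KYSE510 controls. Whether reads were divided between these places was not tested. H19_1 and H19_2 lie on the strand opposite H19, over 2.51% and 2.44% of its exon bases. The mean of H19_1 was 4.50 RPKM in KYSE150 controls and 602 in KYSE510 controls, and that of H19_2 was 20.9 and 3057. Both rows thus separated the lines in the same direction as H19. Whether counting used the strand is not given, so they may hold reads of H19 itself and are no separate evidence.

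HOTAIR was close to absent in KYSE150. Its RPKM there was 0.0575, 0 and 0.0169 in controls, which is 3, 0 and 1 reads, and it was 0.975, 1.48 and 0.992 in the KYSE510 controls, from 61 to 97 reads. Over the pooled controls, 4 of 63265810 reads in KYSE150 and 229 of 76839225 in KYSE510 fell on HOTAIR, a ratio of 47.1 with an exact 95% interval of 18.2 to 174 that covers counting error only. The difference was 1.64 on the log2(RPKM + 0.5) scale, a scale on which a gene near 0 can change little, and no test is read from it. Every KYSE510 library was above every KYSE150 library. HOTAIR_3, a short row on the opposite strand over 3.73% of the exon bases, held reads amounting to 20.6% of the HOTAIR count.

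HOTAIR lies at chr12:53962308-53974956 on the minus strand, between HOXC12 and HOXC11. Of 9 HOXC genes, which encode transcription factors of body position, 7 were tested. HOXC10, HOXC11 and HOXC4 passed the filter only through KYSE510, as HOTAIR did, and their levels are given with no test. HOXC11 had 4 reads over the KYSE150 controls and a mean of 1.76 RPKM in KYSE510, HOXC10 had means of 0.277 and 7.22 RPKM, and HOXC4 of 0.397 and 1.01. Of the 4 HOXC genes in both lines, 1 was called, where 58.1% of all genes in both lines were. It was HOXC13, with means of 1.53 and 5.58 RPKM (1.58, limma adjusted p = 2.81e-07). HOXC6, HOXC9 and HOXC8, which lie between HOXC10 and HOXC4, were not called.

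**Figure D3:**
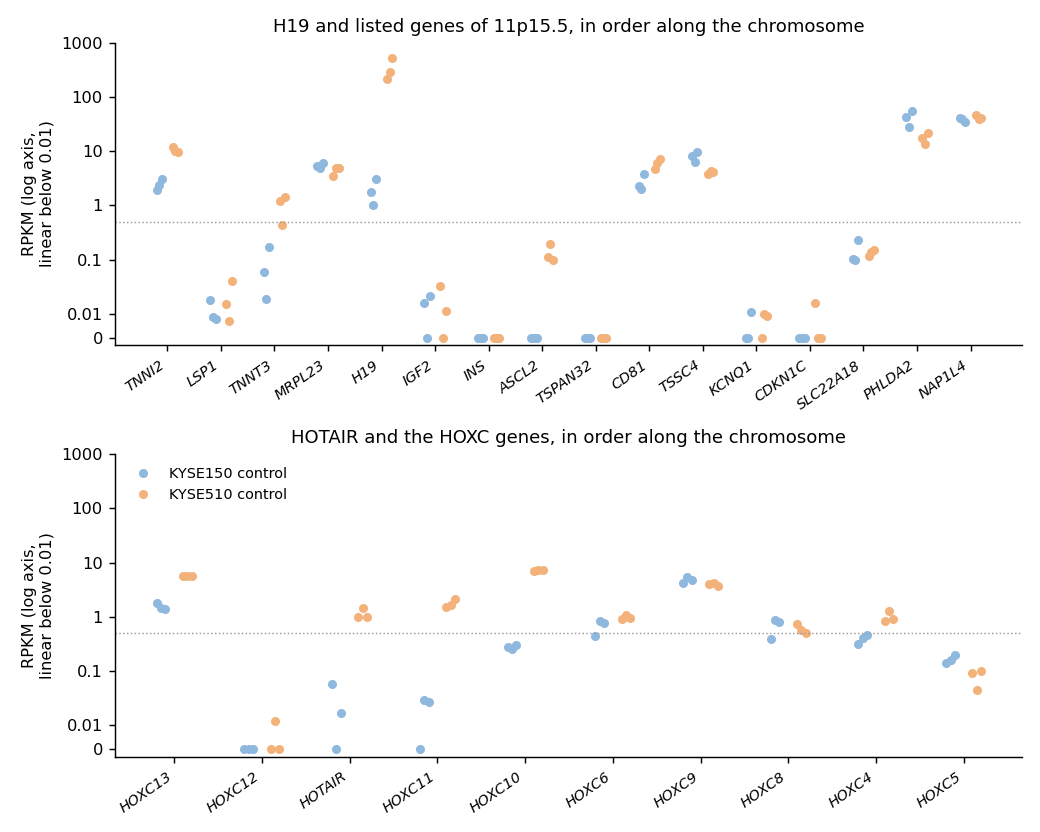
RPKM (log axis, linear below 0.01) in the 3 control libraries of each line for H19 and 15 listed genes of 11p15.5 and for HOTAIR and 9 HOXC genes, in order along the chromosome; the dotted line marks the 0.5 RPKM filter. H19 lies above all 15 neighbours in KYSE510 and below several of them in KYSE150, while the KYSE510 points of HOXC13, HOXC11, HOXC10 and HOTAIR lie above those of KYSE150.

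The genes of the complexes that HOTAIR is known to contact were expressed in both lines. Of 14 PRC2 and LSD1 complex genes, 7 were higher and 5 lower in KYSE510, so 85.7% were called in 1 direction or the other, beside 58.1% of genes in both lines. KDM1A, which encodes the demethylase LSD1, had means of 18.8 and 34.5 RPKM (0.86, adjusted p = 1.75e-06), its corepressor gene RCOR1 differed by 0.87 (adjusted p = 4.26e-06), and SUZ12, a core PRC2 subunit, by 0.81 (adjusted p = 6.27e-06). PHF19, a PRC2 accessory factor, was lower by 1.42 on the log2 scale (13.8 against 4.86 RPKM), as was EZH2, the PRC2 methyltransferase (23.6 against 18.3, log2 difference -0.35, adjusted p = 0.00393). The genes of this group therefore differed in both directions.

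UCA1 was the third member with a wide difference. It had 3.52, 3.73 and 4.14 RPKM in the KYSE150 controls and 12.1, 21.1 and 26.7 in those of KYSE510. The groups were far apart, although the KYSE510 controls spread more than 2-fold among themselves, and the mean was 5.26-fold higher in KYSE510 (log2 difference 2.19, SE 0.24, limma adjusted p = 1.02e-05). UCA1 lies at chr19:15828961-15836320 on the plus strand. A gene on the opposite strand, AC004510.3, covers 21.3% of its 2299 exon bases, and its means were 3.48 and 18.4 RPKM. Whether counting used the strand is not given in the sources used here, so reads of this pair cannot be told apart.

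The paraspeckle RNA NEAT1 was moderately higher in KYSE510. It had 8.20, 10.97 and 9.01 RPKM in the KYSE150 controls and 13.0, 14.5 and 18.7 in the KYSE510 controls, without overlap, and differed by 0.68 (SE 0.18, limma adjusted p = 0.00709). NEAT1 lies at chr11:65422774-65445540 on the plus strand, and its 22767 exon bases cover both its short and its long transcript. The rows NEAT1_1, NEAT1_2 and NEAT1_3 are short segments near the 5′ end, in the part common to both transcripts. They make up 1.69% of the exon bases but held reads amounting to 13.7% to 17.1% of the NEAT1 count in the 12 libraries. Each was higher in KYSE510 (0.70, 1.10 and 0.80, limma adjusted p = 0.00611, 0.000843 and 0.0108). These rows lie on NEAT1 exon bases of the same strand, so their calls are not separate evidence from that of NEAT1. How a read that only partly overlaps a short row was counted is not given in the sources used here.

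Just past the NEAT1 sequence printed above starts the tRNA-like RNA that RNase P releases. The table joins it with its MALAT1 counterpart in 1 row, mascRNA-menRNA, which had 28 reads over the KYSE150 controls and 82 over the KYSE510 controls. Its log2 difference was 1.09 (adjusted p = 0.0128). The call was lost without control replicate 3 of KYSE150 (adjusted p = 0.0511) and without that of KYSE510 (0.0571).

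Protein partners of NEAT1 were abundant in both lines. NONO and SFPQ, the core paraspeckle proteins that NEAT1 needs, had means of 169 and 123 RPKM in KYSE150 controls and 175 and 144 in KYSE510 controls. Of 17 paraspeckle protein genes, 3 were higher and 3 lower in KYSE510 (35.3% called, beside 58.1% of genes in both lines). PSPC1, the paraspeckle component gene, was lower (26.8 against 14.3 RPKM, log2 difference -0.88, adjusted p = 8.39e-05), as was NUDT21 (-0.38, adjusted p = 0.00296), and TAF15 was higher (0.56, adjusted p = 0.000985).

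MALAT1, which lies next to NEAT1 at chr11:65497762-65506516 on the plus strand, did not pass the test. Its RPKM was 14.7, 18.6 and 16.7 in the KYSE150 controls and 18.4, 15.9 and 15.004 in the KYSE510 controls. The groups overlapped, and the difference of -0.02 had a 95% interval of -0.32 to 0.28 on the log2 scale, so larger differences either way lie outside it. An antisense gene, AP000769.1, covers 18.1% of the MALAT1 exon bases and carried reads amounting to 12.1% of the MALAT1 count. Of 13 nuclear speckle and MALAT1-partner genes, 2 were higher and 3 lower in KYSE510 (38.5% called, beside 58.1% of genes in both lines). ELAC2, the RNase Z that trims the tRNA-like product, was lower (-0.81, adjusted p = 5.07e-06), as was METTL16, which binds the MALAT1 triple helix (-0.43, adjusted p = 0.000791), while the splicing factor gene SRSF5 was higher (0.65, adjusted p = 0.000263).

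Of the 4 snoRNA host genes among the members, SNHG12 was higher and GAS5 lower in KYSE510. GAS5, which accumulates when growth stops, lies at chr1:173863900-173868882 on the minus strand. It had 37.7, 33.3 and 37.0 RPKM in the KYSE150 controls and 26.7, 24.8 and 27.1 in the KYSE510 controls. It was the member with the tightest libraries, and a difference of -0.45 (SE 0.08, limma adjusted p = 0.000302) was well outside their spread. SNHG12, at chr1:28578538-28582983 on the same strand, had 7.54, 5.81 and 8.65 RPKM in KYSE150 and 10.3, 10.6 and 12.5 in KYSE510 (0.58, SE 0.14, adjusted p = 0.00300). Their C and T runs above were read from starts of different annotations, and whether such runs bear on these levels was not tested.

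SNHG1 and DANCR did not pass. SNHG1, host of several box C/D snoRNAs at chr11:62851988-62855914 on the minus strand, had 14.0, 10.4 and 15.7 RPKM in the KYSE150 controls and 10.2, 10.4 and 13.4 in the KYSE510 controls, and its difference of -0.22 had an interval of -0.56 to 0.12. DANCR, named for holding back epidermal differentiation and placed at chr4:52712404-52720351 on the plus strand, had 4.04, 3.20 and 5.46 RPKM in KYSE150 and 3.80, 6.67 and 6.30 in KYSE510, a difference of 0.36 with an interval of -0.15 to 0.86. SLC3A2, an amino acid transporter gene on the opposite strand, 188 bases upstream of the SNHG1 start, differed by -0.60 (limma adjusted p = 0.00118). ERVMER34-1, an endogenous retroviral gene 2267 bases past DANCR, had 1 read over the 3 KYSE150 controls and a mean of 3.80 RPKM in KYSE510 controls, and passed the filter only through KYSE510. Both RNAs overlapped between the lines, and each depended on a library: SNHG1 was called without KYSE150 control replicate 2 (adjusted p = 0.0352) and DANCR without KYSE510 control replicate 1 (0.0369).

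Of 23 non-coding snoRNA host genes listed, these 4 among them, 22 were tested, 3 were higher and 9 lower in KYSE510. This is 54.5% called, beside 58.1% of genes in both lines, with a median difference of -0.28 beside -0.09 over those genes. SNHG5 (-1.67), SNHG21 (-1.29) and SNHG7 (-0.93) were among those lower in KYSE510, with adjusted p from 1.58e-06 to 0.000976, and SNHG4 (1.19, adjusted p = 0.000168) was among those higher. Of 14 nonsense-mediated decay genes, whose products clear spliced host RNAs, 2 were higher and 6 lower (57.1% called, beside 58.1% of genes in both lines). The helicase-binding factor gene UPF2 had 27.6 RPKM in KYSE150 controls and 11.8 in KYSE510 controls (-1.18, adjusted p = 1.65e-06), and UPF3A and RBM8A each differed by -0.69.

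Mature snoRNAs sit in introns, but several snoRNA rows overlap exon bases of the host rows. SNORA61 makes up 3.85% of the SNHG12 exon bases and held reads amounting to 25.6% of the SNHG12 count. SNORD22 makes up 6.68% of the SNHG1 exon bases and held reads amounting to 10.1% of the SNHG1 count. All 18 rows that lie wholly inside member exons had reads, 12 of them on the strand of the member and 6 on the opposite strand. For the 12, reads over shared bases were therefore counted in both rows or divided between them, and were not dropped. The 6 do not bear on this, because strand use is not given.

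TUG1 was higher in KYSE510 by a small margin. It had 10.8, 11.4 and 14.1 RPKM in the KYSE150 controls and 13.9, 19.2 and 20.0 in the KYSE510 controls. The highest KYSE150 library just exceeded the lowest of KYSE510, and the difference of 0.52 (SE 0.16, limma adjusted p = 0.0165) was lost when control replicate 1 of KYSE150 or control replicate 2 or 3 of KYSE510 was left out, with adjusted p from 0.0603 to 0.0678. TUG1 lies at chr22:30970677-30979395 on the plus strand. Its segment row TUG1_3 makes up 3.49% of the exon bases and held reads amounting to 28.6% of the TUG1 count. MORC2, a chromatin remodelling gene 2379 bases before it, differed by almost the same amount (0.53, from 10.9 to 15.9 RPKM, adjusted p = 0.00117), while SMTN, the nearest tested gene on the other side, was lower in KYSE510 (-0.58, adjusted p = 0.00165).

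The E-box CACGTG, the hexamer bound by MYC and MAX among other factors and its own reverse complement, was searched in RefSeq promoter windows from 250 bases before to 50 after a start, because the title of the series links HCP5 to c-Myc. Windows were at hand for 7 of the 10 members, MALAT1 with 2. Of these 8 windows only that of TUG1 held it, 77 bases before a RefSeq start that lies upstream of the TUG1 row of the table, against 7.26% of all 35116 windows. The GAS5 window, chr1:173868996-173869295, also lies upstream of its row and does not reach the GAS5 start printed above. This describes letters in these windows and says nothing of binding.

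Other cancer-associated long non-coding RNAs from a list of 30 gave a similar mixture. Of these, 28 were in the table and 15 were tested. TINCR, CASC9 and 3 others passed the filter only through 1 line, and of the remaining 10, 3 were higher and 1 lower in KYSE510 (40.0% called, beside 58.1% of genes in both lines). PVT1, a neighbour of MYC, differed by 3.70 (0.922 against 18.0 RPKM, limma adjusted p = 2.83e-10) and AFAP1-AS1 by 2.44 (2.52 against 16.0). TINCR, an RNA of epidermal differentiation, had means of 0.205 and 1.63 RPKM. CASC9, an esophageal carcinoma RNA, was at 1.45 RPKM in KYSE150 controls and 0.00895 in KYSE510 controls, where it had 1 read in all. Of 19 p53 target genes, a class to which NEAT1 and TUG1 are often counted, 18 were tested, 1 of which passed the filter only through 1 line. Of the other 17, 3 were higher and 7 lower (58.8% called, beside 58.1% of genes in both lines). Their median difference was -0.21, beside -0.09 over genes in both lines. BAX (1.23), BTG2 (0.76) and PHLDA3 (0.69) were the higher ones, and DDB2 (-0.68, adjusted p = 0.00242) was among the lower ones.

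The second comparison set HCP5-silenced against control libraries within each line. No member passed the limma test: 0 of 10 in KYSE150, where 0.499% of tested genes did, and 0 of 10 in KYSE510, where 0.0393% did. The counts and medians of members here include HOTAIR. Its 0 to 5 reads per library in KYSE150 left little room for a call in that line, so its mean and difference rest largely on KYSE510. Control and silenced libraries overlapped for all 10 members in both lines, while 19.2% of tested genes were without overlap in KYSE150 and 12.1% in KYSE510. The mean change over the lines (0.539% of genes called) and the difference between lines (0.0% called) also had 0 of 10 members called. At an unadjusted limma p under 0.05, 0 members stood out in KYSE150 (18.1% of tested genes) and 2 in KYSE510 (6.35%), HOTAIR and MALAT1. For the mean this count was 0 (11.5%), and for the difference it was 1, H19 (12.2%). The median change of the members was 0.06 in KYSE150 and -0.07 in KYSE510, beside 0.08 and -0.02 over all tested genes. With replicate number as a block, 0 members were called in KYSE150 (6.7% of genes called), KYSE510 (0.112%), the mean (2.74%) and the difference (0.0%). Voom on the recovered reads with that block called H19 alone, in each line and for the difference, and 0 members for the mean (6.83% of genes).

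**Figure D4:**
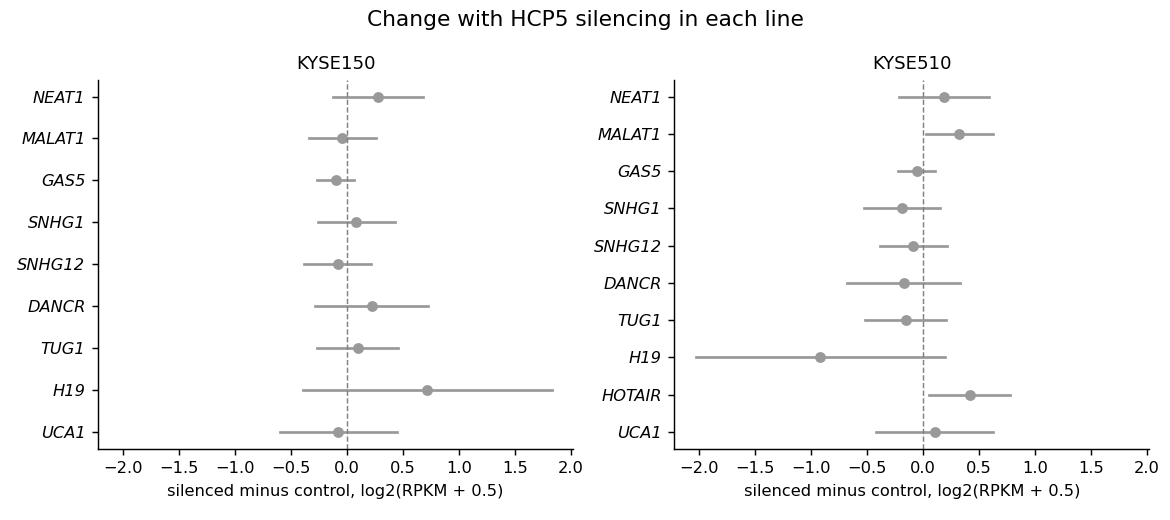
Change with HCP5 silencing, as silenced minus control on the log2(RPKM + 0.5) scale, with limma 95% intervals for each RNA in KYSE150 (left) and KYSE510 (right); HOTAIR is left out in KYSE150, where it had 0 to 5 reads. No point is black because no adjusted p was under 0.05, and H19 has the widest interval in both lines.

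H19 lay on opposite sides of its controls in the 2 lines, without passing the main test. In KYSE150 it went from 1.80, 1.02 and 3.03 RPKM in controls to 2.26, 1.98 and 7.48 in silenced libraries, and in KYSE510 from 217, 286 and 516 to 139, 119 and 287. The silenced mean was 201% of control in the first line and 53.5% in the second. Without silenced replicate 3 of KYSE150 the change in that line was 0.18 on the log2 scale (limma adjusted p = 0.941), and over all alternatives it ran from 0.18 to 1.02. In KYSE510 it ran from -1.30, without silenced replicate 3, to -0.57, without control replicate 3. Taken by replicate number, the silenced library was 126%, 195% and 247% of its control in KYSE150 and 63.9%, 41.4% and 55.7% in KYSE510, so all 3 pairs were higher in one line and all 3 lower in the other, as for 10.2% of tested genes.

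The unpaired groups overlapped, because H19 varied widely between replicates. The change was 0.72 (SE 0.51, limma adjusted p = 0.466) in KYSE150 and -0.92 (SE 0.51, adjusted p = 0.862) in KYSE510, and the difference between them was -1.64 (SE 0.72, adjusted p = 0.408). The block reduced the adjusted p to 0.0604, 0.125 and 0.102 without reaching the threshold. Voom with the block passed it in KYSE150 (0.97, adjusted p = 0.0117, 17.8% of genes called), in KYSE510 (-0.92, adjusted p = 0.000286, 2.14% called) and for the difference (-1.89, adjusted p = 0.00636, 6.68% called). The exact two-sided permutation p was 0.4 in KYSE150 and 0.3 in KYSE510. The row H19_3, outside the gene, had means of 8.09 RPKM in controls and 11.9 in silenced libraries of KYSE150, and of 1134 and 772 in KYSE510, so it was higher in one line and lower in the other as well.

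**Figure D5:**
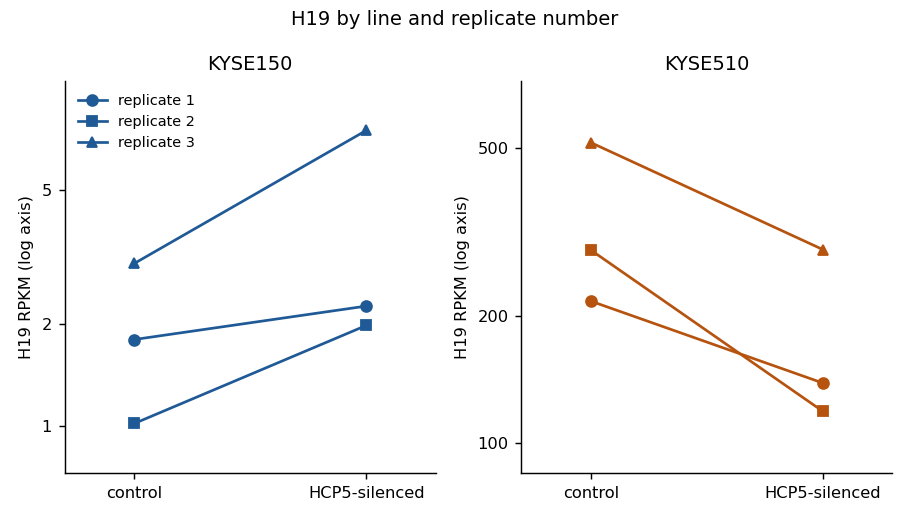
H19 RPKM (log axes with different ranges) in control and HCP5-silenced libraries of KYSE150 (left) and KYSE510 (right), with a line for each replicate number. All 3 lines go up in KYSE150, from 1.02 to 3.03 in controls to 1.98 to 7.48 in silenced libraries, and all 3 go down in KYSE510.

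The nuclear RNAs MALAT1 and NEAT1 were not called in either line. MALAT1 had 14.9, 14.97 and 18.8 RPKM in silenced KYSE150 libraries and 23.0, 22.0 and 17.3 in silenced KYSE510 libraries. In KYSE510 all 3 silenced libraries were above the control of the same number, at 116% to 139% of it, and the difference of 0.33 had an unadjusted p of 0.0350 and a limma adjusted p of 0.742, while in KYSE150 it was -0.04 with an interval of -0.34 to 0.26. NEAT1 had 8.56, 13.3 and 13.0 RPKM in silenced KYSE150 libraries and 16.9, 19.9 and 15.7 in silenced KYSE510 libraries. Its changes were 0.28 (interval -0.13 to 0.68) and 0.19 (interval -0.21 to 0.59).

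HOTAIR in KYSE510 had 1.71, 2.17 and 1.25 RPKM after silencing, against 0.975, 1.48 and 0.992 in controls, so each silenced library was above the control of its number. Its change was 0.42 (SE 0.16, unadjusted p = 0.0269, limma adjusted p = 0.699). In KYSE150 it had 5, 2 and 1 reads, and no fold is given. UCA1 had 3.36, 4.58 and 2.94 RPKM in silenced KYSE150 libraries and 18.5, 20.5 and 22.5 in silenced KYSE510 libraries, and TUG1 10.7, 13.6 and 14.7 and 13.5, 16.3 and 17.4. The intervals of both RNAs included 0 in both lines.

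Of the snoRNA hosts, GAS5 had 33.6, 34.5 and 32.4 RPKM in silenced KYSE150 libraries and 26.0, 23.3 and 26.3 in silenced KYSE510 libraries. Its changes of -0.10 and -0.06 had intervals of -0.27 to 0.06 and -0.22 to 0.11, the tightest of any member, so larger changes either way lie outside them. SNHG1 had 13.3, 13.0 and 15.9 RPKM and then 9.38, 9.13 and 11.02, SNHG12 6.60, 6.21 and 7.73 and then 9.61, 10.6 and 10.99, and DANCR 3.83, 4.83 and 6.38 and then 4.29, 4.79 and 5.26 in silenced KYSE150 and KYSE510 libraries. All of these overlapped their controls. Taken by replicate number, GAS5, SNHG1 and TUG1 were lower in all 3 pairs of KYSE510, and NEAT1 was higher in all 3 of KYSE150. None of them was called with the block. The share of all tested genes with all 3 pairs of a line in the same direction is not reported here. These pairs, and those of MALAT1 and HOTAIR in KYSE510, are therefore given as description only. The members' changes in the 2 lines other than H19 lay between -0.19 and 0.42.

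In the wider lists no gene passed the main test after silencing. Of the 22 tested snoRNA host genes, 0 were called in either line, with or without the block. The lists of paraspeckle, nuclear speckle, nonsense-mediated decay, 11p15, HOXC, PRC2 and LSD1, p53 target and other cancer-associated long non-coding RNA genes also had 0 called members in both lines. With the block, calls appeared in KYSE150 in 1 of 17 paraspeckle genes (NUDT21), 1 of 13 speckle genes (HNRNPC), 1 of 14 PRC2 and LSD1 genes (RBBP4), 2 of 18 p53 targets (MDM2 and SESN2) and 1 of 15 other long non-coding RNAs, where 6.7% of all tested genes were called. For the mean over both lines, 1 p53 target was called higher with the block (CDKN1A, 5.56% of the list, beside 2.74% of all tested genes). The other long non-coding RNA called in KYSE150 was CASC9, at 1.45 ± 0.345 RPKM in controls and 0.626 ± 0.31 after silencing (-0.82, adjusted p = 0.0739, and 0.0492 with the block). Over all alternatives its adjusted p by limma ran from 0.0186 to 0.278.

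Several members followed the replicate number. Replicate 3 was the highest library of all 4 groups for H19, SNHG1, SNHG12 and TUG1, and for 12.9% of tested genes. For TUG1, replicate 1 was also the lowest in all 4 groups. MALAT1, GAS5 and HOTAIR showed no such order. What the replicate number stands for is not given in the labels, and its part in the levels was not tested.

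The genes most like a member were found by Pearson correlation of log2(RPKM + 0.5) over the 12 libraries, after the mean of each line was subtracted. These values are descriptions, since libraries share replicate numbers and all 17823 genes were searched. SNHG1 was closest to ZNF561 (r = 0.97), DANCR to PPP1CC (0.97), HOTAIR to MPDZ (0.97) and H19 to AC108142.1 (0.96). TUG1 was closest to its own segment TUG1_3 (0.98) and then to MTA1 (0.98), and NEAT1 to its segment NEAT1_3 (0.95) and then to OSBPL8 (0.93). GAS5 was closest to SERBP1P6 (0.91), UCA1 to CTD-2528L19.4 (0.94) and MALAT1 to HSD17B7P2 (0.84). Among the members themselves, TUG1 and DANCR (0.91), H19 and SNHG1 (0.89) and SNHG1 and SNHG12 (0.88) were the pairs most alike, while H19 and HOTAIR were the least (-0.55). Correlations of HOTAIR rest largely on the KYSE510 libraries, because it had 0 to 5 reads per library in KYSE150.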

How the data were processed

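RNA sequencing of 12 libraries in 4 groups of 3 was used. Per the submitters' processing notes, the authors worked with HISAT2, DESeq and the GRCh38 build, and they deposited 1 table of RPKM values for 38516 genes. Read filters, the counting tool, the annotation release, RNA selection and strand use are not given in the sources used here. The deposited RPKM values were multiples of what 1 read is worth within 0.05 reads, so read numbers were recovered: 20035025 to 28202422 per library, and counting intervals cover counting error only. Groups came from the sample labels.

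Log2(RPKM + 0.5) was fitted in limma 3.58.1 (R 4.3.3) over all 12 libraries and the 17823 genes at 0.5 RPKM or more in 3 or more libraries, with trended variances and Benjamini-Hochberg adjustment over all tested genes at a threshold of 0.05. The contrasts were silencing in each line, its mean and difference over lines, and KYSE510 against KYSE150 controls. Genes that reached the filter in libraries of only 1 line (2185) are given for that last contrast as levels with no test, a choice made after the data were seen. Exact two-sided permutation tests used scipy 1.17.1. The scripts were tested on simulated data. Same-numbered control and silenced libraries of a line deviated together in all 6 pairs (correlation 0.147 to 0.415, against -0.385 to 0.184 for other numbers). Deviations were from means of 3 libraries, so positive values for same numbers by themselves push the others down. KYSE150 control replicate 2 was closer to silenced replicate 1 (0.184) than to silenced replicate 2 (0.147). The fit with replicate number as a block is given where it changes a call. Other alternatives were another pseudocount, no filter, median centring, quantile normalization, voom on recovered reads, a fit of only the libraries compared and leaving out each library.

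The named genes are the members, HCP5, up to 4 called genes of each list with the largest log2 differences, the nearest tested genes on each side of a member, the 3 genes most like each member (the first is printed, except for SNHG12, for which it is not reported here), and IGF2, EZH2, NONO and SFPQ as textbook partners. Rows that overlap a member, the H19 segments, the uncalled HOXC genes and list genes called only with the block were named after their values were seen. The members and lists were chosen with earlier results of these data known. Of 38516 genes, 123 are placed on more than 1 chromosome, and 1701 were listed at 0 in all libraries.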

Additional observations from a re-analysis of the deposited data

Results flagged for a closer look

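H19 is given here because its 3 pairs lay in opposite directions in the 2 lines. The silenced library was above the control of its number in all 3 pairs of KYSE150 and below it in all 3 pairs of KYSE510, as for 10.2% of tested genes. The difference of the 2 changes, KYSE510 minus KYSE150, was -1.64 on the log2(RPKM + 0.5) scale (SE 0.72, interval -3.21 to -0.06). Its limma p was 0.0429 before and 0.408 after adjustment, and 0.102 after adjustment with replicate number as a block. In KYSE150 the values rest on 59 to 570 reads per library, in KYSE510 on 7083 to 40073.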

How the results depend on the processing

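Directions and calls of the RNAs other than HOTAIR between the control lines held under every other pseudocount, filter and scaling tried, except MALAT1, whose value of -0.02 became 0.0098 with median centring and 0.0314 with quantile normalization, and ran from -0.1039 to 0.061 as libraries were left out. With silencing in KYSE150, SNHG1 became -0.0437 and TUG1 -0.0342 with median centring. Leaving out 1 library gave ranges of -0.1491 to 0.0392 for MALAT1, -0.0799 to 0.2066 for SNHG1, -0.2286 to 0.039 for SNHG12 and -0.2355 to 0.0467 for UCA1 in KYSE150, and -0.2112 to 0.345 for UCA1 in KYSE510. The exact permutation p of DANCR over both lines, 0.92 on the log2 scale, was 0.985 on RPKM, with the opposite sign. The cause of these changes was not tested.

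Counts of all genes called depended on the pairing. With replicate number as a block they were 1194 in KYSE150 (89 without it), 20 in KYSE510 (7), 488 for the mean (96) and 0 for the difference (0), and voom with that block gave 3180, 382, 1218 and 1191, calling 1 of the 10 RNAs (H19) in KYSE150, 1 in KYSE510 and 1 for the difference. Quantile normalization gave 154 in KYSE150 and 11 in KYSE510. Only the libraries compared gave 7 and 0, pseudocount 0.1 gave 3 in KYSE510, and no filter gave 44 in KYSE510 and 10 for the difference. With 1 library left out, counts ran from 15 to 1287 in KYSE150, 2 to 7 in KYSE510, 43 to 140 for the mean and 0 to 4 for the difference; the highest in KYSE150 came without control replicate 3. Few reads limit HOTAIR in KYSE150 and mascRNA-menRNA.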
